A study of Danio rerio with 2 samples.

Results

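Isolated accessible sites in the chromosome interiors of the early zebrafish embryo are described here. They are ATAC-seq peaks that lay more than 5 Mb from both ends of their chromosome and had no other peak of the same list starting within 10 kb. They were chosen by the positions of the called peaks alone, and the largest end coordinate among the peaks of a chromosome, over both lists, stood for its end. The rule chose 126 of the 380 peaks of replicate 1 (33.2%) and 462 of the 1096 peaks of replicate 2 (42.2%), 588 of 1476 in all. The remaining peaks were 178 and 379 clustered interior peaks, and 76 and 255 peaks near chromosome ends. Numbers and spacing are therefore given as a description, without a test.

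Both libraries came from whole wild-type embryos of strain AB/PS at the 256-cell stage, 2.5 hours after fertilization, with 75000 cells in each. They form 1 group with 2 biological replicates, so no treatment, genotype or stage can be contrasted, and each replicate is 1 library. Yolk and chorion were removed, and the label gives no cell type below the whole embryo. Peak values were made by the authors with MACS from 5123112 deduplicated tags in replicate 1 and 5586367 in replicate 2, a depth ratio of 1.09. Those tags were 33.9% and 34.4% of all tags. The lists differ far more in length than in depth, at a ratio of 2.88, and the numbers of isolated interior peaks differ by 3.67.

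In ATAC-seq the Tn5 transposase inserts adapters where DNA is not covered by nucleosomes or other proteins, so a local excess of tags marks accessible chromatin. Before the zygotic genome is activated, the zebrafish embryo runs on maternal RNA and protein and divides rapidly with little transcription of its own. Accessible sites become far more numerous once activation begins, and the maternally supplied factors Pou5f3, Sox19b and Nanog are known for opening many of them. Promoters and enhancers typically appear as single narrow peaks in such data. Genes and bases under the sites were not looked up, since no Zv9 genome was used here.

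The strongest isolated site was chr22:28947397-28947654 (Zv9). Its pileup, which counts the extended tags covering the summit, was 93 in replicate 1 and 92 in replicate 2. Its fold enrichment over the local tag density, the authors' ratio, was 32.0 and 29.6, the highest of the isolated interior peaks in each list. Its length was 258 and 248 bp. It was the best ranked isolated site in both lists by −log10 q, and its values in the libraries lay close together on these measures.

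Sites isolated in both lists numbered 69. On chr9:16015463-16016366 the pileup was 84 tags in replicate 1 and 74 in replicate 2, over 904 and 1026 bp. On chr24:12341671-12342280 it was 91 and 89 tags over 610 and 592 bp. The longest isolated site of both lists, chr20:6555516-6557070, had 90 and 89 tags over 1555 and 1534 bp. These long sites lay in dense surroundings, with 11.2, 17.3 and 20.2 times the sample's mean number of tags in the 10 kb around the summit in replicate 1. Their fold enrichments were lower than that of the chromosome 22 site, at 11.9, 8.77 and 7.52 in replicate 1.

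The other 8 of the 12 best ranked sites were shorter than these long ones in both lists. On chr12:7009578-7010003 the pileup was 47 tags in replicate 1 and 59 in replicate 2, with fold enrichments of 17.6 and 18.1. Chromosome 4 held 3 of the 12 best sites. The one at chr4:34960386-34960573 had 27 and 30 tags in windows at only 1.47 and 1.37 times the mean density, and the one at chr4:45503457-45503661 had 35 and 42 tags. The last, chr4:26169792-26170075, had 41 and 46 tags at 9.07 and 8.17 times the mean. A site on chr18:6736814-6737055 had 31 and 40 tags, one on chr1:41119881-41120250 had 33 and 43, and one on chr2:13838801-13839229 had 40 and 46.

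The site at chr5:64236849-64237145 stood further apart between the libraries than the other best ranked ones. It had 25 tags in replicate 1 and 46 in replicate 2, and fold enrichments of 13.3 and 20.1. Of the 12 best ranked sites, 8 had more tags in replicate 2, and chromosomes 22, 9, 24 and 20 held the sites at 74 tags or more in both.

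Over all 69 sites the median pileup was 19 tags in replicate 1 (range 10 to 93) and 25 in replicate 2 (range 9 to 92). Set over the replicate 1 pileup, that of replicate 2 had a median ratio of 1.12 (quartiles 0.971 and 1.47, range 0.652 to 2.2), beside the depth ratio of 1.09. Pileup was higher in replicate 2 at 43 sites, higher in replicate 1 at 21 and equal at 5, and 56 of the 69 differed by no more than 1.5 times in either direction. Replicate 2 peaks were longer at 46 sites and shorter at 21, with a median difference of 20 bp. Summits lay a median of 19 bp apart (quartiles 7 and 67). At 36 sites they were within 20 bp, and at 65 within 147 bp, the length to which the authors extended each tag. The sites were chosen because their peaks overlapped, which itself limits how far apart the summits can lie. Each site also had to be called in both lists. Pileup ratios and summit distances were not worked out for pairs with no isolated peak. The overlap covered at least 50% of both peaks at 58 of the 69 sites. Among all overlapping peaks it did so for 282 of 330 in replicate 1 and 282 of 322 in replicate 2, a similar part.

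**Figure D1:**
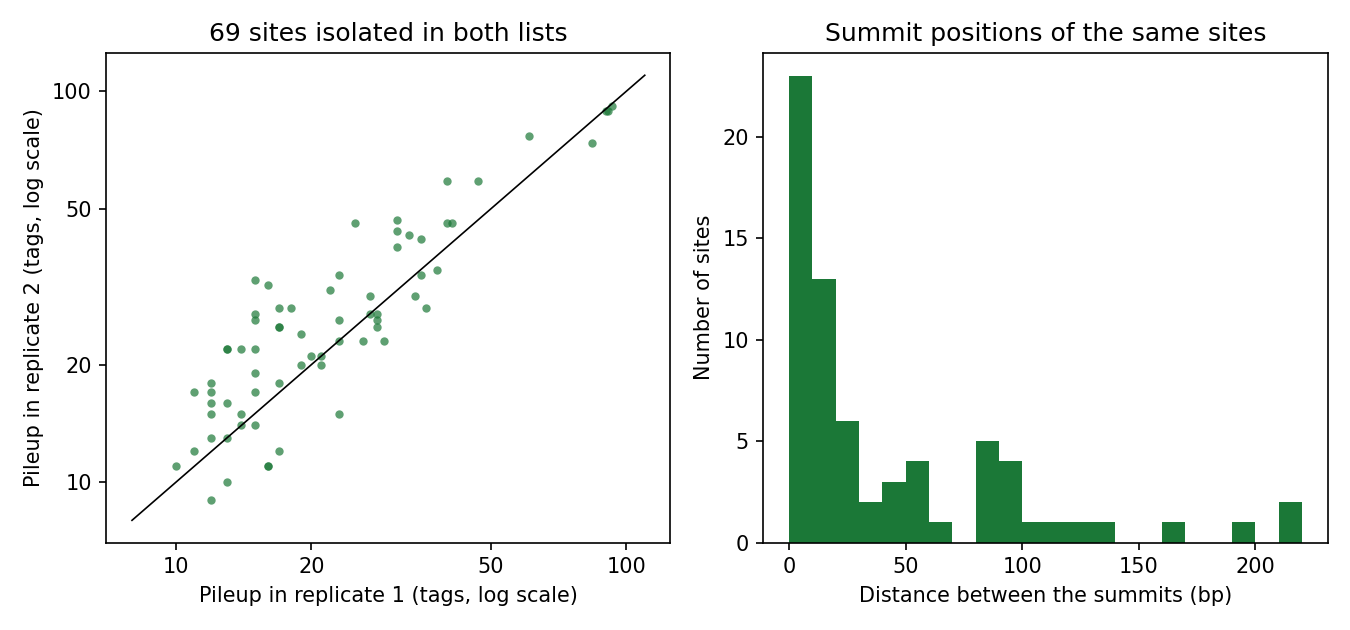
Left, pileup in tags of each of the 69 sites isolated in both lists, replicate 1 against replicate 2 on log axes, with the line of equal pileup. Right, the number of these sites by distance between the summits in bp, which the choice by overlap limits. Most points on the left lie near the line, with 43 sites above it, and 36 sites have summits within 20 bp.

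The next comparison asks how many isolated sites met a peak of the other list by at least 1 bp. In replicate 1, 104 of 126 did (82.5%, Wilson 95% interval 74.98 to 88.2), beside 86.8% of all replicate 1 peaks. In replicate 2, 74 of 462 did (16.02%, interval 13.0 to 19.6), beside 29.4% of all replicate 2 peaks. These shares depend on the unequal list lengths. With as many of the best replicate 2 peaks as replicate 1 has, they were 54.0% (68 of 126) and 48.6% (68 of 140). At equal lengths, shares for all peaks and for the other kinds are not given, so those of isolated peaks cannot be set against them. With the full lists, clustered interior peaks met the other list in 162 of 178 cases (91.0%, interval 85.9 to 94.4) in replicate 1. In replicate 2 they did so in 186 of 379 (49.1%, interval 44.1 to 54.1). Near chromosome ends the shares were 84.2% and 24.3%. Isolated peaks thus had the lowest share of the 3 kinds in each list, although their interval overlaps both others in replicate 1 and that of the peaks near chromosome ends in replicate 2 (19.5 to 29.9), and no test was made between them. Peaks are not replicates, and these intervals cover counting error only.

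Shared isolated peaks had higher pileups than unshared ones in both lists. In replicate 1 the median was 23 tags for the 104 shared peaks (order-statistic 95% interval 19 to 28, range 10 to 101) and 13.5 for the 22 unshared (interval 10 to 16, range 10 to 33). In replicate 2 it was 25.5 tags for the 74 shared peaks (interval 22 to 28, range 9 to 92) and 13 for the 388 unshared (interval 12 to 13, range 7 to 42). The intervals of the medians did not overlap, but the ranges did. Only 2 of 22 unshared peaks in replicate 1 and 15 of 388 in replicate 2 reached the median of the shared ones, and 31 of 104 and 15 of 74 shared peaks exceeded every unshared one. Over all peaks, 8 of 50 and 84 of 774 unshared peaks reached the shared median, and 98 of 330 and 7 of 322 shared peaks exceeded every unshared one. Among clustered interior peaks, 3 of 16 and 54 of 193 unshared peaks reached the median of their shared ones. Over the whole lists the median pileup was 30 tags in replicate 1 and 18 in replicate 2, against 20 and 13 for the isolated interior peaks. The contrast was not particular to isolated peaks. Over all peaks the shared and unshared medians were 32 and 17 tags in replicate 1, and 36 and 15 in replicate 2. Near chromosome ends they were 25 and 15.5, and 30 and 13, and for clustered interior peaks 36 and 29, and 44 and 29.

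Length separated them in the same direction. The median was 180.5 bp for shared and 153.5 bp for unshared peaks in replicate 1 (intervals 170 to 213 and 147 to 171). In replicate 2 it was 242.5 bp and 159.5 bp (intervals 204 to 276 and 157 to 164). In replicate 1 these intervals overlap slightly, and in replicate 2 they do not. The longest unshared peak of replicate 1 had 242 bp, and 35 of 104 shared peaks were longer. In replicate 2 the unshared peaks reached 483 bp, and 4 of 74 shared peaks were longer. Over all peaks, 106 of 330 shared peaks in replicate 1 and 33 of 322 in replicate 2 were longer than every unshared one. Many peaks had the smallest length in the lists, 147 bp, the extension length itself. In replicate 1 they were 12 of 104 shared and 7 of 22 unshared isolated peaks. In replicate 2 they were 5 of 74 shared (6.76%) and 103 of 388 unshared (26.5%). Over all peaks they were 26 of 330 and 13 of 50 in replicate 1. In replicate 2 they were 10 of 322 and 171 of 774. The length contrast was not particular to isolated peaks either. Over all peaks the shared and unshared medians were 198 and 157 bp in replicate 1, and 247 and 162 bp in replicate 2. For clustered interior peaks they were 210 and 159 bp, and 251.5 and 171 bp. Near chromosome ends they were 204 and 159 bp, and 243 and 162 bp.

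**Figure D2:**
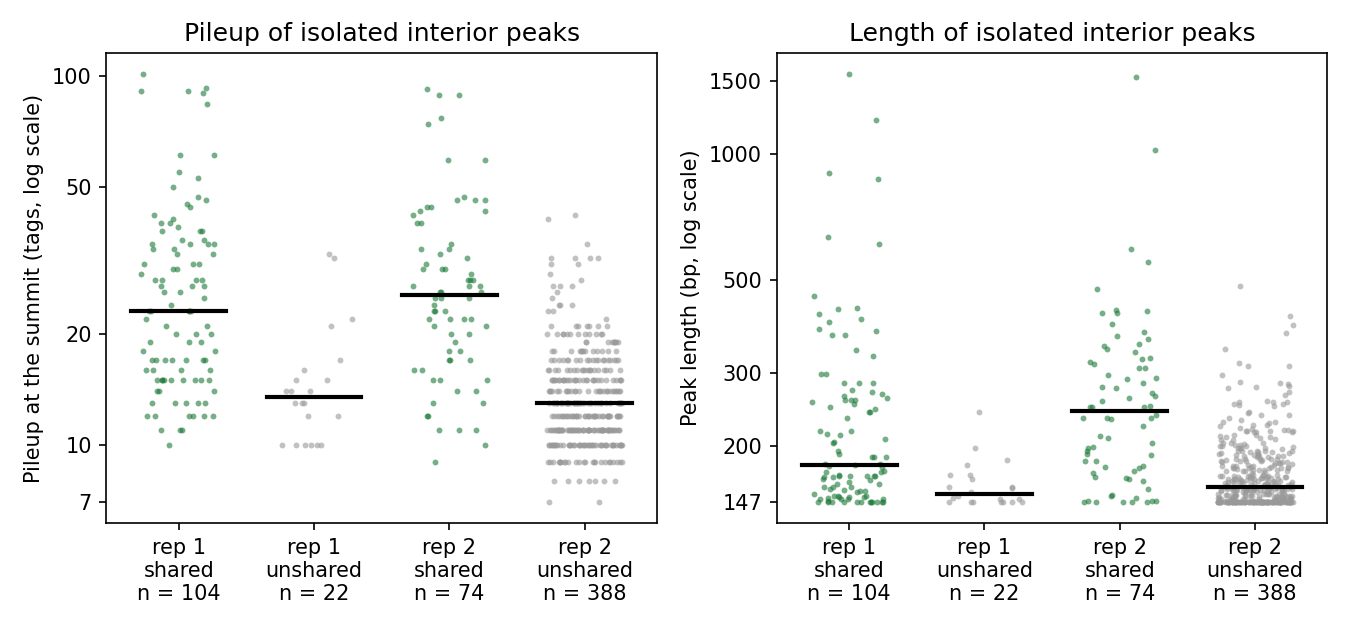
Pileup at the summit in tags (left) and peak length in bp (right) of every isolated interior peak on log axes, by replicate and by whether it overlapped the other list. Black lines are medians (23, 13.5, 25.5 and 13 tags, and 180.5, 153.5, 242.5 and 159.5 bp); the shared groups extend further upward, and the groups overlap at low values.

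Since higher peaks are also longer, lengths were set side by side at like pileup. Under 15 tags there was little difference in replicate 2, with a median of 150 bp for 11 shared and 152 bp for 254 unshared peaks. From 15 to 19 tags the medians were 234 bp for 11 shared and 177 bp for 93 unshared peaks. From 20 to 29 tags they were 232 bp and 188.5 bp (25 and 32 peaks), and from 30 to 39 tags 248 bp and 195 bp (9 and 7). Shared peaks of replicate 2 thus had the longer median in each class from 15 to 39 tags, and at 40 tags or more only 2 unshared peaks were left to compare. The ranges overlapped in each class, as with 158 to 336 bp and 147 to 391 bp at 15 to 19 tags. No intervals were made for these small classes. The other kinds of peak were not compared in this way, so the difference cannot be called particular to isolated ones. In replicate 1 only the lowest class held enough unshared peaks to compare, with medians of 149.5 bp for 18 shared and 150.5 bp for 14 unshared.

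Sharing followed pileup most steeply in replicate 2. Under 15 tags, 11 of 265 isolated peaks met replicate 1 (4.15%, interval 2.33 to 7.28). The share was 10.6% at 15 to 19 tags, 43.9% at 20 to 29 and 56.2% at 30 to 39 tags. At 40 tags or more it was 18 of 20 (90.0%, interval 69.9 to 97.2). Of clustered interior peaks with 40 tags or more, 109 of 173 met replicate 1 (63.0%, interval 55.6 to 69.8), so the isolated peaks had the higher share in that class and the lower one under 20 tags. The intervals overlap in every class except that of 40 tags or more, where the bounds 69.9 and 69.8 nearly meet. In replicate 1 the isolated peaks went from 18 of 32 under 15 tags (56.2%) to 25 of 29 at 15 to 19 tags (86.2%) and 19 of 19 at 40 tags or more. Clustered peaks of replicate 1 had 4 of 4, 5 of 7 and 70 of 72 in these classes, with overlapping intervals. At 20 to 29 and 30 to 39 tags the isolated peaks had 92.0% and 90.5%, and the clustered ones 84.2% and 89.5%.

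By length, 5 of 108 replicate 2 isolated peaks at 147 bp met replicate 1, against 25 of 48 between 250 and 392 bp and 9 of 11 from 411 bp upward. In replicate 1 all 22 isolated peaks of 253 to 396 bp and all 11 of 404 bp or more met a replicate 2 peak. The rise with length was not particular to isolated peaks. Of clustered interior peaks in replicate 2, 3 of 20 at 147 bp, 54 of 71 from 251 to 395 bp and 41 of 44 from 400 bp upward were shared. In replicate 1 the clustered counts were 7 of 10 at 147 bp, 35 of 37 from 250 to 395 bp and 23 of 23 from 405 bp upward.

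**Figure D3:**
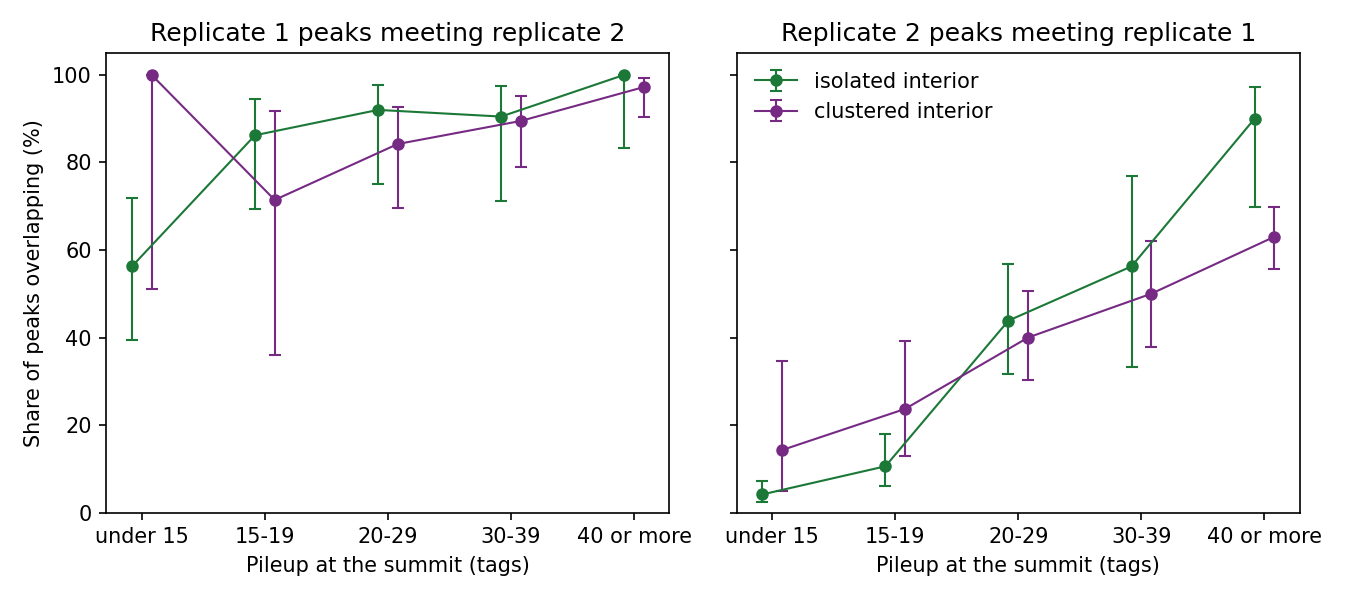
Share of peaks in percent that overlapped the other list, by pileup class, for isolated (green) and clustered (purple) interior peaks, with Wilson 95% intervals. In replicate 2 the isolated peaks go from 4.15% under 15 tags to 90.0% at 40 tags or more; the first clustered point of replicate 1 rests on 4 peaks.

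The best ranked isolated peaks without a partner lay at varied distances from the other list. The strongest was chr17:16714016-16714210 in replicate 2, with 32 tags, a fold enrichment of 15.4, 1.91 times the mean density around it and rank 13 among the isolated peaks. A pair of neighbours on the same chromosome followed, chr17:40073689-40073906 with 42 tags and chr17:40093905-40094123 with 31, whose nearest replicate 1 peaks lay 31128 and 10911 bp away. Peaks at chr3:56940660-56940847 and chr13:25537325-25537579 had 20 and 23 tags, and the nearest replicate 1 peak lay 707263 and 2537655 bp away. Of the 388 unshared peaks of replicate 2, 384 had no replicate 1 start within 10 kb, and the median gap to the nearest replicate 1 peak was 1971001 bp. Replicate 1 had only 380 peaks in all, so most positions lie far from one. The same counts were not made for the other kinds of peak, so these gaps cannot be called particular to isolated ones.

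In replicate 1 the best unshared isolated peak was chr12:42775755-42775996, with 22 tags, a fold enrichment of 7.38 and a replicate 2 peak 1143 bp away. It ranked 51 among 126. Those at chr15:5925199-5925347 and chr4:49787982-49788166 had 15 and 21 tags and lay 8506 and 6186 bp from a replicate 2 peak. The peaks at chr24:24954402-24954572 and chr7:10949270-10949416 had 15 and 14 tags and lay 1577010 and 2522399 bp from one. No isolated replicate 1 peak in the first 50 ranks was therefore without a partner, and 17 of the 22 unshared ones had no replicate 2 start within 10 kb.

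Whether a site counted as isolated depended on the list. Of the 104 shared replicate 1 peaks, 69 met a peak that was isolated in replicate 2 as well and 35 (33.7%) met a clustered one. In the other direction 5 of 74 shared replicate 2 peaks (6.76%) met a clustered replicate 1 peak. Around the 35 clustered partners, replicate 2 had 57 further peaks within 10 kb, of which 40 had fewer tags than the partner. Among the 57, 5 met the isolated replicate 1 peak itself, and the rule left almost no other replicate 1 peak nearby that the rest could have met. The nearest neighbour started a median of 687 bp away, and 22 of 35 had one within 1 kb. Partners of the 35 had a median pileup of 39 tags, and the sites themselves had 33 in replicate 1, against 25 and 19 for the 69 sites isolated in both.

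The largest pileup among isolated peaks belonged to such a site. On chr11:35982474-35983108, replicate 1 had 101 tags over 635 bp and replicate 2 had 97 tags over 377 bp, with a further replicate 2 peak of 23 tags starting 485 bp away, which also met the replicate 1 peak. The site at chr17:43027482-43028688 had 91 tags over 1207 bp in replicate 1, and replicate 2 split it in the same way, with 86 tags over 1010 bp and a second peak of 61 tags. At chr17:48162148-48162402 the pileup was 45 and 37 tags, with a separate replicate 2 peak of 16 tags starting 303 bp away. Among the 35 sites, 5 met 2 replicate 2 peaks at once. In the opposite direction, chr4:39143439-39143854 of replicate 2 had 44 tags and met a clustered replicate 1 peak of 45 tags, chr12:32080288-32080708 had 29 against 24, and chr14:17187311-17187662 had 40 against 36. The pileups differed by 5 tags at most in these 3 best ranked cases, but chr16:20299212-20299358, 1 of the other two, had 43 tags against 62.

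At the limits of the rule, the isolated peaks nearest to a neighbour were chr8:36441834-36441982 in replicate 1, at 10147 bp and 28 tags, and chr16:20299212-20299358 in replicate 2, at 10042 bp and 43 tags. The same chromosome 16 site was just outside in replicate 1, at 9906 bp and 62 tags. Just outside in replicate 2 was chr17:46654965-46655113, at 9972 bp and 17 tags. At the margin, the innermost excluded isolated peaks lay 4.78 and 4.97 Mb from an end, with 26 and 10 tags, and the outermost included ones 5.17 and 5.08 Mb, with 16 and 11 tags.

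The tags around the sites were recovered from pileup and fold enrichment, which gives the number in the 10 kb centred on the summit. Isolated peaks had a median density of 3.05 times the mean in replicate 1 (interval 2.30 to 3.88, range 1.0 to 39.8) and 1.74 times in replicate 2 (interval 1.59 to 1.89, range 1.0 to 46.2). Shared ones stood at 3.54 and 2.81 times, and unshared ones at 1.66 and 1.59 times. Over all peaks the shared and unshared medians were 7.34 and 2.89 times in replicate 1, and 7.70 and 2.01 times in replicate 2. Under 2 times the mean lay 30 of 104 shared and 16 of 22 unshared isolated peaks in replicate 1, and 27 of 74 and 246 of 388 in replicate 2. At 4 times the mean or more lay 47 of 104 shared and 3 of 22 unshared isolated peaks in replicate 1, and 30 of 74 and 35 of 388 in replicate 2. Over all peaks, those under 2 times the mean were 53 of 330 shared and 21 of 50 unshared in replicate 1. In replicate 2 they were 40 of 322 and 385 of 774. Those at 4 times or more were 222 of 330 and 22 of 50, and 221 of 322 and 200 of 774. For clustered interior peaks, those at 4 times or more were 147 of 162 and 15 of 16, and 159 of 186 and 141 of 193. Density counts the peak's own tags, and the authors' calculation cannot fall below the mean, where 1 isolated peak of replicate 1 and 35 of replicate 2 stood. Its part in the higher pileup of shared peaks was not tested. Under 4 times the mean, an alternative chosen after seeing the data, shared peaks had medians of 16 tags in replicate 1 and 19.5 in replicate 2, and unshared ones 13 and 12. Without this limit the medians were 23 and 25.5 tags for shared peaks, and 13.5 and 13 for unshared ones. Since density counts the peak's own tags, the limit also removes high pileups.

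How far the tags were concentrated in the peak can be expressed as pileup over the tags in 10 kb. This share is built from the same pileup and local tags as the fold enrichment, since the tags in 10 kb were recovered from it. Tags spread evenly would put 1.47% of them over the summit. A peak is called only where it exceeds the local density, so every peak lies above this value, which serves only as a reference. Isolated peaks had a median of 17.6% in replicate 1 (interval 15.3 to 20.5) and 18.7% in replicate 2 (interval 17.7 to 19.3), and for peaks at the mean density the value is a lower bound. The chromosome 22 site had a pileup of 93 beside 132 tags in 10 kb in replicate 1 (70.5%), and 92 beside 146 in replicate 2 (63.0%), more than any other isolated peak. At chr4:34960386-34960573 the shares were 49.1% and 53.6%, and at chr5:64236849-64237145 38.5% and 50.5%. The chromosome 20 site had 11.9% and 12.2%, at a similar pileup to that of the chromosome 22 site. Shared and unshared peaks had medians of 16.4% and 20.6% in replicate 1 and 18.4% and 18.8% in replicate 2, with overlapping intervals in each. Concentration in the summit did not separate them in the way pileup did. A weak peak in a sparse window is called only at a high share, so this measure cannot decide whether they differ. Fold enrichment is the same ratio with 1 added to the pileup and to the local expectation, so it is not an independent measure. The added 1 lowers the ratio most in sparse windows, so share and fold enrichment can order groups differently. Fold enrichment separated shared from unshared peaks little in replicate 1, with medians of 7.205 and 7.004 and overlapping intervals (6.85 to 8.14 and 6.45 to 7.39). In replicate 2 the medians were 7.92 for shared and 6.60 for unshared isolated peaks, with intervals of 7.29 to 8.89 and 6.43 to 6.74. Over all replicate 2 peaks the shared and unshared medians were 6.37 and 6.33. They were 5.12 and 4.86 for clustered interior peaks of replicate 2, and 8.98 and 6.68 near chromosome ends. Clustered interior peaks had 8.69% and 8.30% of tags over the summit, but their windows hold the tags of neighbouring peaks by the way they were chosen.

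**Figure D4:**
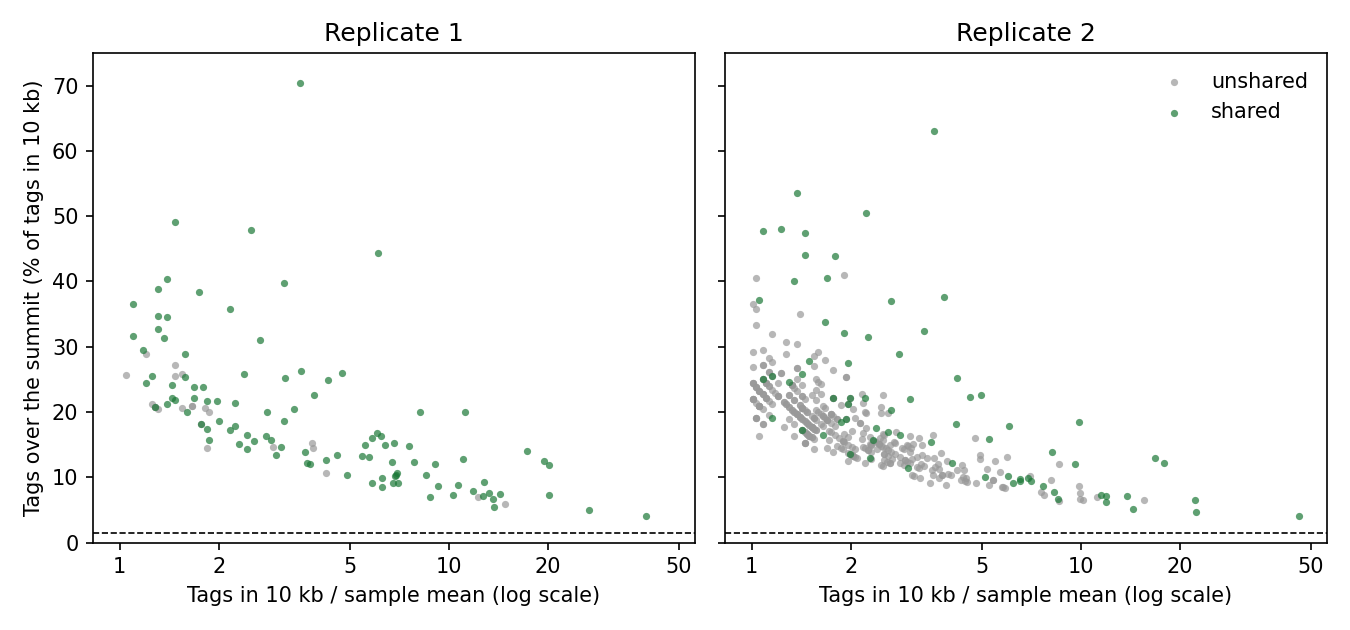
Tags over the summit as a percentage of the tags in the surrounding 10 kb, against tags in 10 kb as a multiple of the sample mean (log axis), for isolated interior peaks above the mean; the dashed line is the 1.47% of an even spread. The chromosome 22 site is the highest point in each panel, at 70.5% and 63.0%, and most unshared peaks lie under 2 times the mean.

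Summits lay near the middle of the peaks, at a median of 47.5% of the length from the lower coordinate in replicate 1 and 45.5% in replicate 2. For shared and unshared peaks these values were 46.3% and 54.6% in replicate 1, with overlapping intervals, and 45.7% and 45.3% in replicate 2.

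Isolated sites were thinly spread over the interiors. The interiors came to 1082 Mb by the furthest peak ends, so there was 1 isolated peak per 8.59 Mb in replicate 1 and 1 per 2.34 Mb in replicate 2. The median distance to the nearest other start of the same list was 1475 and 482 kb. In replicate 2, 22 of 104 peaks with a neighbour at 10 to 100 kb were shared (21.2%, interval 14.4 to 29.96), against 25 of 201 at 100 kb to 1 Mb (12.4%) and 27 of 157 beyond 1 Mb (17.2%, interval 12.1 to 23.9). The intervals overlap, so no order with spacing can be read. At 5 to 10, 10 to 20 and over 20 Mb from the chromosome end, 78.4%, 83.1% and 86.7% of replicate 1 peaks and 15.3%, 16.2% and 16.4% of replicate 2 peaks were shared, with overlapping intervals in each list.

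Chromosome 4 had the most isolated peaks in both lists, 13 in replicate 1 and 38 in replicate 2, of which 10 and 9 were shared and 8 formed sites isolated in both. Per Mb of interior that is 0.253 and 0.741, against chromosome medians of 0.108 and 0.392. Interior peaks of all kinds, clustered ones included, numbered 26 and 73 there, beside 30 and 61 on chromosome 8 and 25 and 70 on chromosome 2. Chromosome 4 was thus among the richest in interior peaks of any kind. The long arm of this chromosome is known for its repeats and its closed, late replicating chromatin. Chromosome 22 came next, with 8 and 22 peaks (0.248 and 0.682 per Mb). Chromosome 16 had 10 and 22, and chromosome 2 had 7 and 30. Chromosome 21 had no isolated peak in replicate 1 and 10 in replicate 2, none of them shared, and chromosome 23 had 2 and 7. Sites isolated in both lists were found on 23 of 25 chromosomes, all but 21 and 23. With 0 to 13 peaks per chromosome in replicate 1, counting error is large, and no chromosome was tested.

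**Figure D5:**
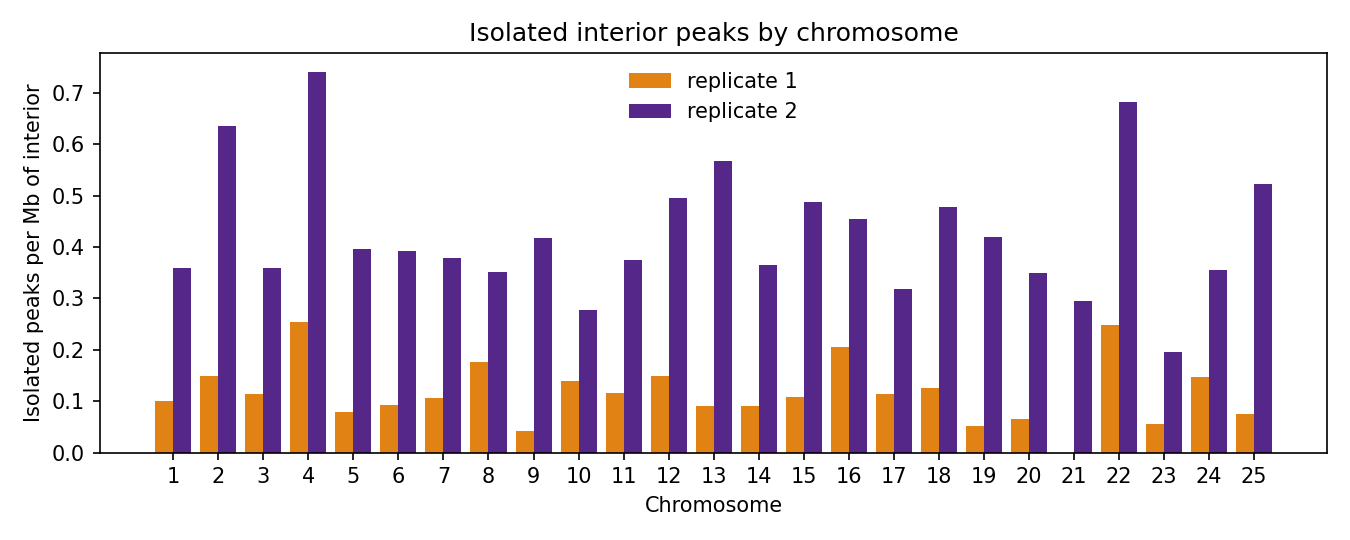
Number of isolated interior peaks per Mb of chromosome interior in replicate 1 (orange) and replicate 2 (purple), by chromosome. Chromosomes 4 and 22 are the highest in both replicates, and chromosome 21 has none in replicate 1.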

How the data were processed

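The deposited files are peak tables from MACS 2.1.1.20160309, called by the authors on 1 sample at a time with tags extended by 147 bp, 1 tag kept per position, no control and a q cut-off of 0.01, per the file headers. The submitters' processing notes list Bowtie2 2.2.1 and Zv9. Unshifted extension can displace summits and peak ends from the transposase cut, and 1 tag per position caps the pileup of dense sites. The deposited pileup is a coverage signal not scaled to depth. The deposited fold enrichment is a ratio to the tag density nearby in that sample, and −log10 q is the authors' value at the summit. Coordinates are 1-based.

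Each list was handled by itself in Python 3.11.15 with pandas 2.3.3, numpy 2.4.6 and scipy 1.17.1, and overlaps were checked with bedtools 2.31.1. Tags in 10 kb were recovered from pileup and fold enrichment and were whole numbers, to a tolerance of 0.01, or equal to the mean for all 588 isolated peaks. No hypothesis test was made, since peaks are not replicates. Intervals at 95% (Wilson for shares, exact binomial order statistics for medians) treat peaks as independent. Functions were tested on simulated lists. The rule and the lists were chosen with earlier results of these data known. Regions were named by a fixed rule, namely the 12 best ranked sites isolated in both lists, the 5 best unshared peaks, the 3 longest, the 1 of highest fold enrichment and the 3 best on a clustered partner in each list, and those at the limits of the selection were added after their values were seen. Alternatives were a margin of 2 or 10 Mb, isolation of 1 or 50 kb, a reciprocal overlap of 50%, −log10 q of at least 5, equally long lists and leaving out a replicate.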

Additional observations from a re-analysis of the deposited data

How the results depend on the processing

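Shared isolated peaks had the higher median pileup and the greater median length in both lists under all 9 alternatives that give both groups. Of 144 values recomputed, 118 stayed within the interval of the reported value, or within 1.5 times for numbers, and 26 did not. Some of the 118 could not move. Equally long lists leave replicate 1 as it is, with 126 isolated peaks and medians of 20 tags and 171 bp. With equally long lists, replicate 2 had 140 isolated peaks, with medians of 24 tags and 210.5 bp, and the shared parts were 54.0% in replicate 1 and 48.6% in replicate 2. Shared medians were then 30 tags in replicate 1, and 32.5 tags and 279 bp in replicate 2, where unshared peaks had 20 tags and 194 bp. This setting leaves out the weaker peaks of replicate 2. With isolation at 1 kb, replicate 1 had 198 peaks with a median of 29 tags (shared 31). Replicate 2 then had medians of 15 tags and 170 bp (shared 36 and unshared 14 tags) and 23.9% shared, beside 29.4% of all replicate 2 peaks. A reciprocal overlap of 50% gave 69.8% shared in replicate 1, beside 74.2% of all replicate 1 peaks. In replicate 2 it gave 13.4%, beside 25.7% of all replicate 2 peaks. Under 4 times the mean density, added after seeing the data, replicate 1 had 76 peaks with medians of 15 tags and 161 bp (shared 16 tags and 169 bp). In replicate 2, 11.1% were shared, with a shared median of 19.5 tags. Over all replicate 2 peaks, 221 of 322 shared and 200 of 774 unshared ones stood at 4 times or more. The limit thus lowers the share over the whole list too, and the fall was not particular to isolated peaks. Apart from what each setting removes, the cause was not tested. Judging isolation in both lists, also added later, left 89 and 456 peaks. Without replicate 2, whose peaks set many chromosome ends, replicate 1 had 110 isolated peaks, and without replicate 1, replicate 2 had 462. Leaving out a replicate gives no share. No paired analysis was possible because both replicates belong to 1 group. The smallest pileups were 10 tags in replicate 1 and 7 in replicate 2, and the lowest −log10 q values were 3.83 and 2.90. Depth may limit which low peaks are called, but what set these limits was not tested.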
